A study of Bos taurus with 4 samples.

Results

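The transcripts of 5 genes were followed in expanded bovine blastocysts: FBXO32, TRIM63, FOXO1, FOXO3 and FOXO4. The members were all probes whose gene symbol in the platform annotation was 1 of these names, which gave 1 probe per gene: 5 of the 43794 probes, and 5 of the 15216 genes with a symbol, on the array. FBXO32 was chosen by its log2 ratio of slow-frozen to control embryos in these same arrays, which only 10 of the 11834 tested genes exceeded, and the other 4 were taken with it as pathway partners. The ratios of the 5 genes are therefore given as a description, with no test.

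The embryos were produced in vitro from slaughterhouse oocytes, carried the breed label beef, and were split at the compact morula stage into an unfrozen control and a group slow-frozen in glycerol, a gradual cooling that draws water out of the cells while ice forms outside them. Surviving morulae of both groups were grown on to expanded blastocysts, and 7 blastocysts made a pool by the labels, which give day 7 after fertilization as the time of collection. The methods allow for fewer embryos in a pool, and they place the morulae on that day, with further culture before the blastocysts were collected. The labels mark the control channel as cryopreserved too, against its own treatment label and the study's methods, which describe it as unfrozen. Each of 4 two-colour arrays on 1 slide compared 1 slow-frozen pool with 1 control pool, with the slow-frozen pool in the red dye Cy5 on arrays 1 and 2 and in the green dye Cy3 on arrays 3 and 4. The pools were whole blastocysts that had survived, so fewer cells of a type and less RNA per cell cannot be told apart.

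FBXO32 encodes atrogin-1, an F-box protein that hands substrates to a ubiquitin ligase of the SCF type, built on the adaptor SKP1 and the scaffold CUL1. TRIM63 encodes MuRF1, a RING finger ubiquitin ligase of the tripartite motif family. In wasting skeletal and heart muscle of mammals the 2 ligases are switched on together by FOXO transcription factors. When insulin or growth factor signals are present, the kinase AKT phosphorylates FOXO proteins and keeps them out of the nucleus, so FOXO activity is set largely at the protein level, which these arrays do not measure.

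Marker genes were read beside the labelled stage. All 7 trophectoderm markers with a probe were above the detection limit in all 8 pools, as were 3 of 5 inner cell mass markers and 2 of 3 hypoblast markers, and the hypoblast gene SOX17 was above it in 3 of 8. So were 2 of 5 blood markers and 2 of 8 cumulus and granulosa markers in all 8 pools, at no more than 6.89 and 3.37 times it. Among trophectoderm markers KRT8 reached 1331 times it and CDX2 4.44 times. Counts above the limit alone thus do not tell cell types apart. The detection limit is the 95th percentile of the 153 negative control spots in a channel, and it lay between 44.8 and 174 intensity units. Between 24638 and 31529 probes exceeded it in a channel, and 30473 probes that did so in at least 4 of 8 readings were tested. The log2 ratios of the arrays, turned to slow-frozen over control, correlated across these probes at between -0.28 and 0.04, including 0.02 for arrays 1 and 2 and -0.21 for arrays 3 and 4. No probe passed the Benjamini-Hochberg adjustment in limma (0 of 30473, or 0%), with 573 probes (1.88%) under an unadjusted p of 0.05.

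The first question was which of the 5 transcripts the pools contained. TRIM63 (probe EMBV3_07741) was the only member far above the limit, at 7.70 to 83.4 times it. FOXO4 (probe EMBV3_12545) exceeded the limit in all 8 readings, but at no more than 1.74 times it. FBXO32 (probe EMBV3_24448) exceeded it in all 4 slow-frozen readings but in only 2 of the 4 controls. FOXO1 (probe EMBV3_01070) passed the limit in 2 slow-frozen and 2 control readings. FOXO3 (probe EMBV3_42365) passed it in 2 slow-frozen readings and 1 control reading, and with 3 of 8 in all it was the only member left out of the test across probes.

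**Figure D1:**
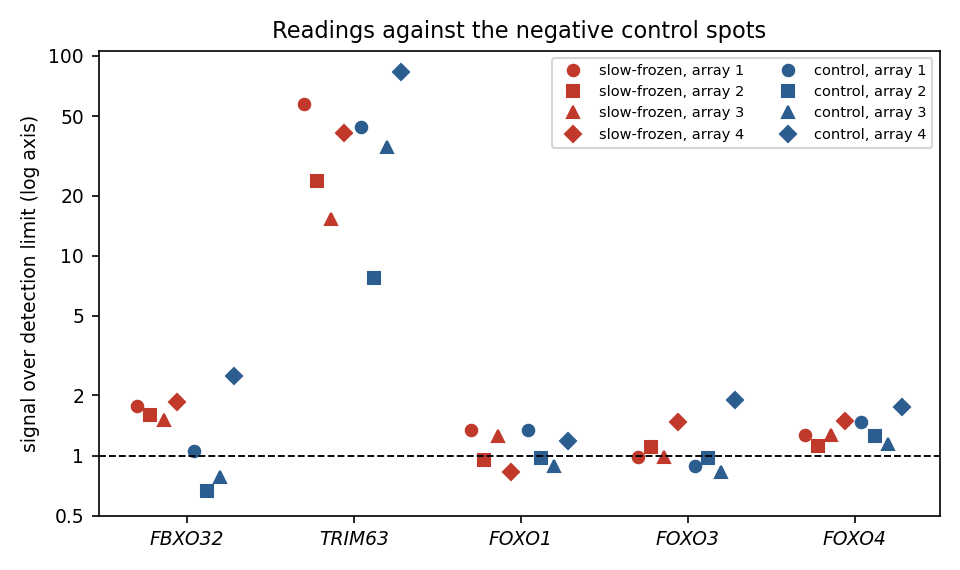
Signal minus local background of the 5 genes in each reading, divided by the detection limit of that channel (log axis, dashed line at 1), with slow-frozen pools in red, control pools in blue and a symbol per array. TRIM63 lies between 7.70 and 83.4 times the limit, whereas the readings of the other genes lie between 0.67 and 2.50 times it.

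FBXO32 gave weak signals in every pool. In the slow-frozen pools its signal minus background was 192, 115, 241 and 322 intensity units on arrays 1 to 4, or 1.77, 1.59, 1.51 and 1.85 times the limit. In the control pools it was 164, 114, 135 and 112 units, or 1.05, 0.67, 0.78 and 2.50 times the limit. As multiples of the limit the slow-frozen readings were thus alike, while the control readings spread from below it to the highest of all 8. That highest multiple, on array 4, came from the lowest of the 8 signals, 112 units. It was read in the channel with the lowest limit, 44.8 units, so the spread of the control multiples is partly one of limits. On array 2 the signals minus background of the pair were nearly equal before correction for the dye. The array as a whole was dimmer in Cy5, with a median spot signal, background included, of 124 units against 237 units in Cy3.

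After correction for the dye by loess the FBXO32 log2 ratio of slow-frozen to control was 0.80, 1.24, 0.36 and 0.40 on arrays 1 to 4. All 4 ratios were positive, with a mean of 0.70 ± 0.41 (SD, n = 4 arrays), a 1.62-fold higher level. The mean was 1.02 on the arrays with the slow-frozen pool in Cy5 and 0.38 on those with it in Cy3, so the direction held within each dye orientation and the size did not. Of the tested probes 3.99% had a positive ratio on all 4 arrays. Among the 30473 tested probes, 8 had every array ratio above the lowest of FBXO32. Neither count is read as a result, because the gene was chosen by its ratio in these arrays.

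When the study's own criteria were applied, namely a change of 1.5-fold or more with p below 0.05 before adjustment, 84 probes (0.276% of those tested) counted as higher. FBXO32 was among them, from which nothing is read because the gene was chosen by the same values. Another 39 probes counted as lower, while with median centring in place of loess the counts were 25 higher and 494 lower. Like every other probe, FBXO32 did not pass the adjustment. As a normalized log2 channel level FBXO32 had 7.91, 7.70, 7.31 and 8.16 in the slow-frozen pools of arrays 1 to 4 and 7.11, 6.46, 6.96 and 7.76 in the control pools. The groups overlapped, because the control pool of array 4 lay above the slow-frozen pools of arrays 2 and 3. In 0.368% of tested probes all slow-frozen levels lay above all control levels, and 0 of the 4 tested members belonged to them.

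**Figure D2:**
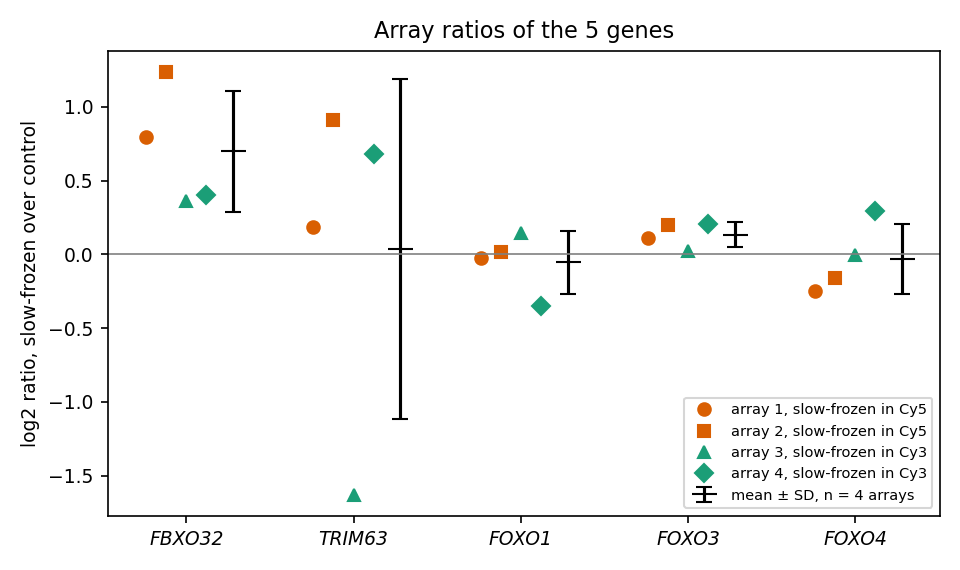
Log2 ratio of slow-frozen to control on each array for the 5 genes, coloured by dye orientation, with the mean and SD of the 4 arrays as black bars. FBXO32 is positive on all 4 arrays (0.36 to 1.24), TRIM63 runs from -1.63 to 0.91, and the FOXO genes stay between -0.35 and 0.29.

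The size of the FBXO32 ratio depended on how the pixels of a spot were summarised. The values above use the median pixel of each spot, as the study did. With the mean pixel in its place the ratio was 0.18, and the 4 arrays gave 0.12, 0.30, 0.15 and 0.15. The mean-pixel signals before normalization were 158, 104, 184 and 267 units in the slow-frozen pools and 171, 106, 133 and 104 units in the control pools, so on arrays 1 and 2 the slow-frozen spot was the dimmer of its pair. With mean pixels and plain background subtraction, added once the values were known, the ratio was 0.58. Both ratios are below a 1.5-fold change. Of 16 alternatives run for this gene, 4 leave the ratio as it is by construction and the deposited table repeats plain subtraction with loess. The other 11 gave positive ratios between 0.18 and 0.92. They include the fits with an array left out, which could not turn negative because all 4 array ratios were positive. Nothing is read from the sign, since the gene was chosen for a high ratio in these arrays.

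**Figure D3:**
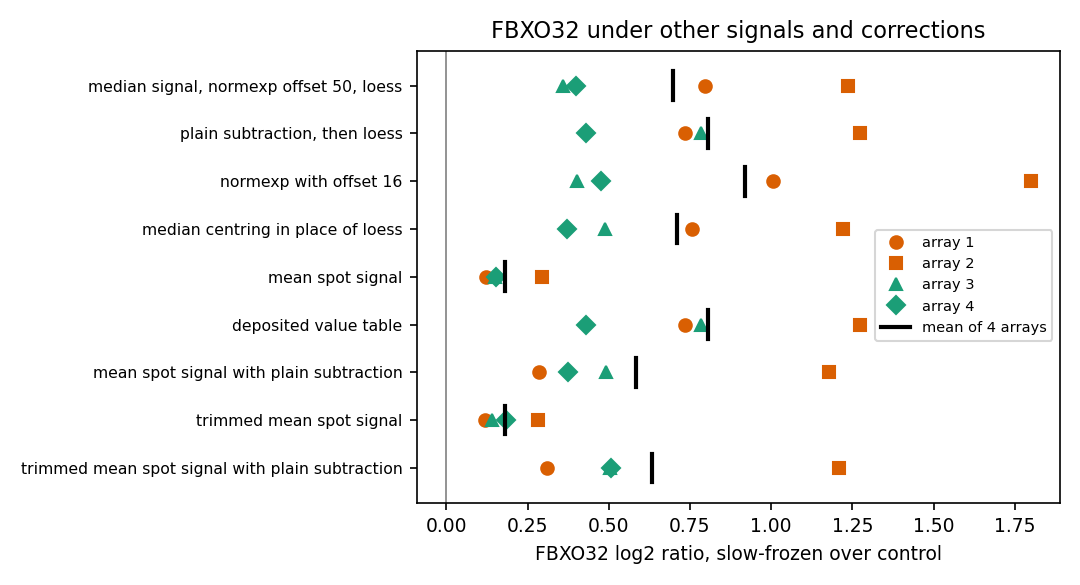
FBXO32 log2 ratio of slow-frozen to control on each array (points) and its mean over 4 arrays (black bar) with the reported processing in the top row and other spot signals, background corrections and normalizations below. The mean falls to 0.18 with mean or trimmed mean pixels under the same background correction and reaches 0.92 with a smaller offset.

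TRIM63, the partner ligase, was well measured and varied strongly from pool to pool. Its signal minus background was 6252, 1721, 2445 and 7142 units in the slow-frozen pools of arrays 1 to 4, and 6909, 1320, 6091 and 3737 units in the control pools. As normalized log2 levels these were 12.72, 11.01, 11.20 and 12.68 in the slow-frozen pools and 12.53, 10.10, 12.83 and 12.00 in the control pools. The pools of array 2 were both low and those of array 1 both high, whereas array 3 had a high control pool and a low slow-frozen pool. From the lowest to the highest pool the level spanned 6.63-fold, and its SD over the 8 levels, 1.00 on the log2 scale, exceeded that of 99.8% of tested probes.

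The TRIM63 ratios had no common direction. They were 0.19, 0.91, -1.63 and 0.68 on arrays 1 to 4, with a mean of 0.04 ± 1.15 (SD, n = 4), a spread larger than that of 99.3% of tested probes. With an array left out, the fit weights the 2 dye orientations alike. The array alone in its orientation then counts as much as the other 2 together. This fitted ratio was 0.61 without array 3 and -0.54 without array 4. With all 4 arrays, the mean was -0.27 with median centring in place of loess. The slow-frozen levels averaged 11.90 ± 0.92 and the control levels 11.87 ± 1.23 (SD, n = 4 pools each), so the group means differed by far less than the pools within a group. FBXO32 and TRIM63 levels correlated at r = 0.49 over the 8 pools, 2 to an array, which is given as a description only. The other pairs of members ran from r = -0.657 for FOXO1 and FOXO3 to r = 0.675 for FBXO32 and FOXO3, genes with signals near the limit.

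**Figure D4:**
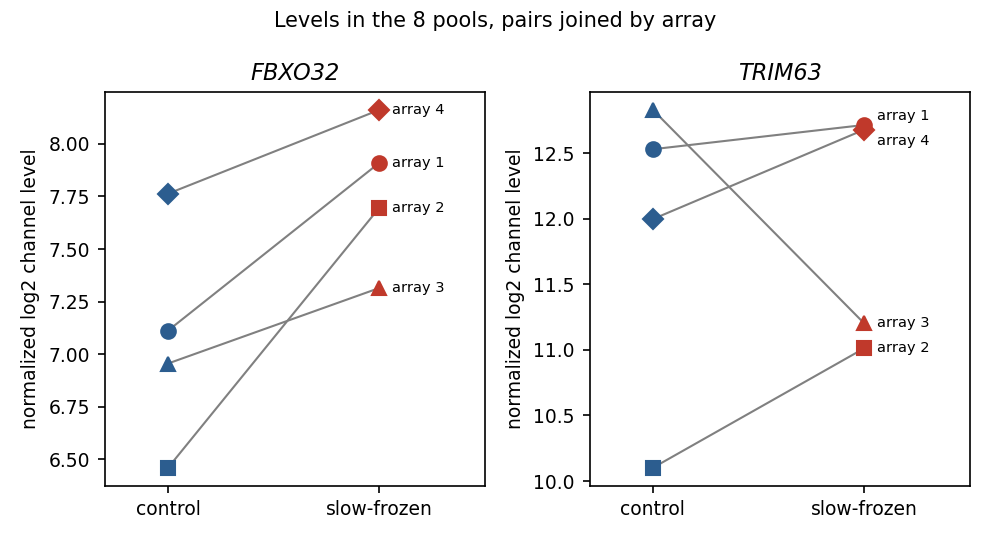
Normalized log2 channel level of FBXO32 (left) and TRIM63 (right) in control and slow-frozen pools, with the 2 pools of an array joined by a line. All 4 FBXO32 lines rise, with overlapping groups, while the TRIM63 lines rise on arrays 1, 2 and 4 and fall on array 3.

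The FOXO factors lay close to the limit and showed small ratios. FOXO1, a main target of AKT in insulin signalling, had log2 ratios of -0.03, 0.01, 0.14 and -0.35 on arrays 1 to 4, a mean of -0.06 ± 0.21 (SD, n = 4). Its signal minus background was 145, 69, 199 and 143 units in the slow-frozen pools and 210, 166, 154 and 53 units in the control pools. The readings were above the limit on arrays 1 and 3 in the slow-frozen pools and on arrays 1 and 4 in the control pools. The fitted ratio was 0.07 without array 4 and 0.05 with mean pixels, so its sign turned with either choice.

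FOXO3, which drives atrogin-1 transcription in mouse muscle, had ratios of 0.11, 0.20, 0.02 and 0.20 on arrays 1 to 4, a mean of 0.13 ± 0.09 (SD, n = 4). Its signal minus background was 106, 80, 156 and 256 units in the slow-frozen pools and 139, 166, 144 and 85 units in the control pools. All 4 ratios were positive, but 5 of the 8 readings lay below the detection limit, at 0.83 to 0.98 times it. With mean pixels the ratio was 0.02.

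FOXO4, an X-linked member of the family, had 138, 81, 201 and 259 units in the slow-frozen pools and 231, 215, 198 and 78 units in the control pools. Its ratios of -0.25, -0.16, -0.00 and 0.29 gave a mean of -0.03 ± 0.24 (SD, n = 4). The fitted ratio was 0.04 without array 3, with the dye orientations weighted alike, although the array ratios left were -0.25, -0.16 and 0.29. It was -0.16 with mean pixels and -0.31 with mean pixels and plain subtraction, where array 4 gave -0.54 and -0.996. With trimmed mean pixels the ratio was -0.0090, and -0.018 with plain subtraction of these signals. The array ratios with median pixels split by dye, with -0.20 where the slow-frozen pool was in Cy5 and 0.14 where it was in Cy3. The ratio spread of FOXO1 and FOXO4 was ordinary, larger than that of 24.4% and 30.4% of tested probes.

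The next question was whether other parts of the pathway differed between the groups. Of 181 tested genes in 7 lists, the 5 members left out, 0 passed the adjustment in limma (0 of 11834 tested genes, 0%). An unadjusted p under 0.05 was reached by 4 of the 181, or 2.21%, against 226 of all tested genes, or 1.91%. At the thresholds of the study 0 of the 181 were counted, while 20 of all genes (0.169%) lay higher and 25 (0.211%) lower. The adjusted p was 0.9999 for each gene named below, and the standard errors are those of the limma treatment term, which leaves out differences between the dye orientations. With mean pixels 21 of the 22 tested list genes named had a smaller ratio, and 14 moved by over 1.5 times in size or changed sign, as did 15 with an array left out.

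Genes that carry insulin signals towards FOXO lay higher after slow freezing for 9 of 20. Their median log2 ratio was -0.02, against -0.0037 for all tested genes, of which 49% lay higher. INPP5D, a phosphatase of PI3K lipid products, had 0.28 ± 0.14 and PDPK1, the kinase that activates AKT, had 0.27 ± 0.14 (SE, n = 4 arrays each). IGF1R, the receptor of insulin-like growth factor, had -0.19 ± 0.14 (SE, n = 4). These 3 kept their sign on all 4 arrays, as did 3.99% of tested probes with a positive and 3.88% with a negative ratio, but 2 other probes of INPP5D gave only 0.09 and 0.08. PDPK1 had 0.53 and 0.48 with the slow-frozen pool in Cy5, but 0.03 and 0.04 with it in Cy3. Its other probe gave 0.09 and was above the limit in 0 readings.

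Partners and modifying enzymes of FOXO lay higher for 13 of 26, with a median of -0.01. YWHAZ, an adaptor protein that binds phosphorylated FOXO in the cytoplasm, had 0.47 ± 0.17 (SE, n = 4) and was under an unadjusted p of 0.05. Its ratios of 1.37, 0.62, 0.05 and -0.18 on arrays 1 to 4 separated the dye orientations. CDK2, a cell cycle kinase that phosphorylates FOXO1, had 0.28 ± 0.14 with a like split, and STK4, the Hippo kinase that acts on FOXO under oxidative stress, had -0.23 ± 0.17 (SE, n = 4 each).

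Textbook FOXO target genes lay higher for 17 of 33, with a median of 0.01 and a range from -0.25 to 0.24. The 3 with the smallest p in this list were TXNIP, an inhibitor of thioredoxin, at -0.23 ± 0.17, the autophagy gene ATG12 at -0.22 ± 0.17 and the cell cycle inhibitor CDKN1B at -0.22 ± 0.20 (SE, n = 4 each). A second ATG12 probe gave -0.02 and its first gave -0.03 without array 2. The CDKN1B fit without array 3 gave 0.00055, from array ratios of 0.24, -0.40 and 0.08. No gene of the 33 had an unadjusted limma p below 0.05, a level reached by 1.91% of all tested genes. On all 4 arrays 0 of the 33 were positive and 1 was negative. Among the 11834 tested genes these numbers were 419 and 480. With 33 genes, nothing is read from such low counts.

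Core and regulator genes of the SCF ligase that FBXO32 works in lay higher for 10 of 25, with a median of -0.06. The scaffold CUL1 had -0.42 ± 0.21 and CAND1, which exchanges F-box proteins on it, had -0.44 ± 0.19, each negative on 3 of 4 arrays (SE, n = 4). CUL1 was at -0.0094 with mean pixels and -0.17 without array 4, and its second probe gave -0.18. CAND1 was at -0.23 without array 3. COPS8, a subunit of the signalosome that removes NEDD8 from cullins, had 0.35 ± 0.17 (SE, n = 4), with 0.04 for its second probe.

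Among other F-box genes 23 of 46 lay higher, with a median of -0.01. FBXO3 had 0.32 ± 0.16, FBXL2 had -0.40 ± 0.20 and CCNF, the cyclin F gene, had 0.47 ± 0.25 (SE, n = 4 each). The CCNF ratio rested on array 2, where it was 1.97. The fit without that array gave 0.13, from array ratios of 0.63, -0.73 and -0.00095. Its other probes gave 0.14 and 0.10. FBXO25, the closest paralog of FBXO32, had 0.20 ± 0.14 for its brightest probe, with a positive ratio on all 4 arrays. Its 3 other probes gave 0.39, 0.29 and 0.34, and the 4 FBXO25 probes kept a positive ratio under every alternative run for them except median centring, where the brightest had -0.0072. With mean pixels they lay between 0.11 and 0.29, around the 0.18 of FBXO32 under that setting. Probe sequences were not used here, so hybridization of FBXO25 transcripts to the FBXO32 probe was not tested.

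Substrates of the ligases and paralogs of MuRF1 lay higher for 8 of 12, with a median of 0.08. EIF3F, a translation initiation factor degraded through atrogin-1 in muscle, had 0.26 ± 0.15 (SE, n = 4), positive on all 4 arrays and -0.068 with median centring. The 3 other EIF3F probes, above the limit in all 8 readings, gave 0.24, 0.29 and 0.19, each positive on only 2 of 4 arrays. The cardiac troponin TNNI3 had 0.20 ± 0.22 with both signs among arrays, and its 3 other probes gave -0.02, -0.0046 and -0.24. Of the paralogs, TRIM54 had -0.13 ± 0.15 (SE, n = 4) and was above the limit in 4 of 8 readings, and TRIM55 was above it in 1 of 8 and was not tested.

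Other regulators of muscle wasting lay higher for 13 of 23, with a median of 0.05, and held 3 of the 4 genes under an unadjusted p of 0.05. ACVR2B and ACVR2A, the receptors through which activin and myostatin signal, had ratios of opposite sign, at 0.55 ± 0.16 and -0.55 ± 0.18 (SE, n = 4 each). ACVR2B was positive on arrays 1 to 3 and ACVR2A negative on arrays 2 to 4, and 2 other ACVR2A probes gave -0.03 and -0.19. With mean pixels the ratios were 0.27 for ACVR2B and -0.33 for ACVR2A. TNFRSF1A, a receptor of tumour necrosis factor, had 0.42 ± 0.15 (SE, n = 4), was positive on all 4 arrays and passed the detection limit in only 2 of the 4 controls, with 0.14 under mean pixels.

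**Figure D5:**
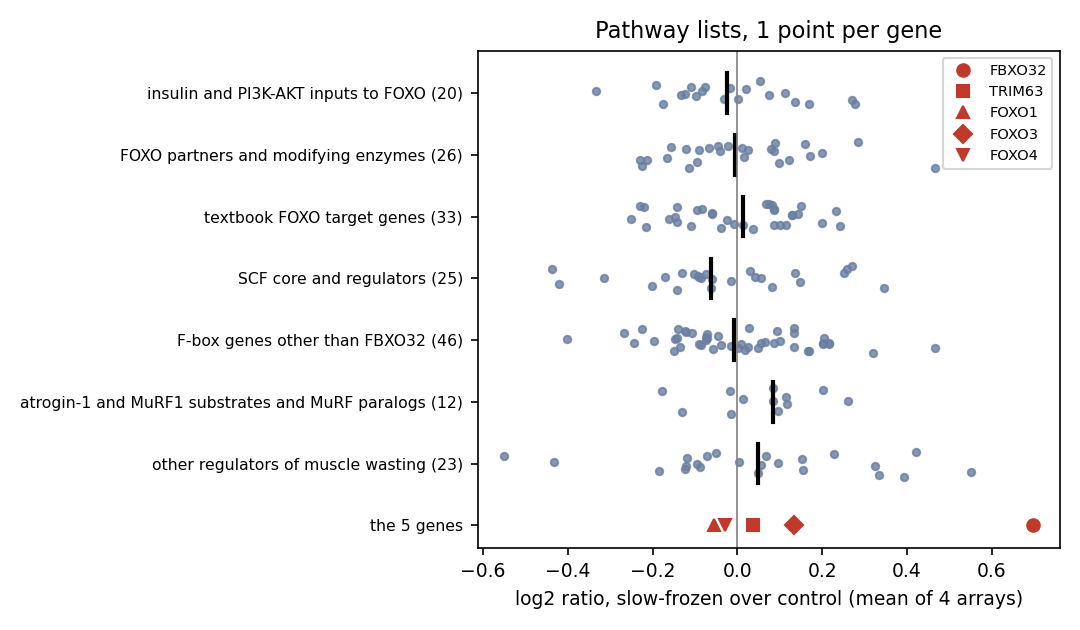
Log2 ratio of slow-frozen to control, as the mean of 4 arrays, for every tested gene of 7 pathway lists (points, number tested in brackets, black bar at the list median) and for the 5 genes in the bottom row. List medians lie between -0.06 and 0.08. FBXO32 at 0.70 lies beyond the points of all 7 lists, which follows from its choice by a high ratio in these arrays.

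Because FBXO32 and TRIM63 are known best from muscle, muscle markers were read in the same pools. Of 15 markers with a probe, 5 were above the limit in all 8 readings. The myogenic factors differed, with MYOD1 above it in 8 readings (at most 1.89 times it), MYF6 in 6, and MYOG and MYF5 in 0. The heart actin gene ACTC1 reached 27.2 times the limit and had a log2 ratio of -0.58, while no other marker of this list exceeded 3.64 times it. The marker signals, each divided by the limit of its channel, were summed per pool. These sums lay between 25.2 and 33.4 in slow-frozen and between 22.6 and 50.3 in control pools. They carry no correction for the dye, and the limits differ between channels, so they do not compare the groups. By log2 ratio 6 of 15 markers lay higher in the slow-frozen pools. The 5 inner cell mass markers lay higher after slow freezing (median log2 ratio 0.38, from 0.07 for SOX2 to 0.82 for NANOG), and 1 of them was under an unadjusted p of 0.05, against 49% higher and 1.91% under that p among all tested genes. For trophectoderm the median log2 ratio was 0.04, with 5 of 7 markers above 0, none under that p and -0.84 for IFNT, the trophoblast interferon. The same kind of sum over the inner cell mass markers ran from 48.9 to 119 in slow-frozen and from 21.3 to 118 in control pools. It does not compare the groups either, and the part of these markers in the FBXO32 ratio was not tested.

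The genes whose brightest probe followed FBXO32 most closely over the 8 normalized levels were TOE1 (r = 0.944), OPN1SW (r = 0.944), TMEM171 (r = 0.940), HTR3C (r = 0.932) and RUSC1 (r = 0.927). TOE1 and RUSC1 were above the limit in all 8 readings, and OPN1SW, TMEM171 and HTR3C in 6, 4 and 5 of them. For TRIM63, looked up after the data were seen, they were NUP160, CITED2, CABLES1, LTV1 and MME, with r between 0.960 and 0.963. A correlation above 0.9 was found for 11 genes with FBXO32 and for 47 genes with TRIM63, and the pools of an array share its hybridization. CITED2, a co-regulator of transcription, was also on the list of FOXO targets, which held 33 of the 11834 tested genes. Nothing is read from this 1 gene.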

How the data were processed

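The authors deposited scanner files with the median and mean pixel intensity of each spot and of its local background in Cy3 and Cy5, neither corrected nor normalized, and a table of values on a log2 scale. The columns of that table have medians between -0.0023 and 0.0017. The methods describe local background subtraction with a small positive value in place of negative results, a log2 transformation, lowess within arrays and quantile scaling between them. Plain subtraction and loess gave the table's log2 Cy5 over Cy3 ratios to within a median of 0.000125 to 0.00099 per array, and it served as an alternative only.

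Groups and dyes came from the labels. Pool RNA had been amplified by in vitro transcription before labelling. Median intensities were corrected with normexp (offset 50) and normalized within arrays by loess that gave control spots weight 0 (limma 3.58.1, R 4.3.3). The 31 spots carrying an outlier flag and 14 closing lines of statistics per file were left out. Log2 ratios were fitted with a treatment and a dye term, eBayes and Benjamini-Hochberg adjustment over all tested probes. Channel levels were taken after Aquantile scaling of the arrays. The brightest probe stood for a gene in the lists. Of 43794 probes, 21790 had 1 gene symbol and 22004 none in the annotation given, and 1524 symbols were updated through RefSeq synonyms (ARS-UCD2.0); no probe had several.

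The members and the lists were chosen with earlier results of these data known. The adjusted p threshold was 0.05. The look-up of genes like TRIM63 and 3 pixel settings were added after the data were seen. Named were every member, the 3 genes with the smallest p in each list and any list gene at the study's thresholds, FBXO25, TRIM54 and TRIM55, and the 5 genes most like FBXO32. The methods describe the 4 arrays as biological replicates, each from its own fertilization cycle. The number of arrays limits the precision. Alternatives covered background correction, normalization, pixel summary, filter, variance model, dye term, pairing and each array left out. With an array left out the treatment term weights the dye orientations alike, so the array alone in its orientation counts more than each of the others. Figures were drawn with matplotlib 3.10.9.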

Additional observations from a re-analysis of the deposited data

How the results depend on the processing

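The FBXO32 log2 ratio of 0.70 ranged from 0.59 to 0.81 with an array left out, and fell to 0.18 with mean pixels and to 0.18 with trimmed mean pixels under normexp, while plain subtraction of these signals gave 0.58 and 0.63; the trimmed mean and the combined settings were chosen after the data were seen. Of the other 4 members 2 had a positive mean ratio, against 1 with median centring and, as fitted ratios, 1 to 3 with an array left out. No gene of the lists passed the adjustment under any of 19 alternatives. With an array left out 0 to 1 probes passed it (1 without array 3), and the probes at the thresholds of the study, 123 in the reported fit (84 higher, 39 lower), numbered 350 to 941. They numbered 224 (138 and 86) with an offset of 16, 519 (25 and 494) with median centring, 17 (14 and 3) with mean pixels and 14 (13 and 1) with trimmed mean pixels; with mean pixels and plain subtraction 48 lay higher and 49 lower, and with trimmed means 52 and 38. Each array pairs its pools; with no replicate block, the 8 channels fitted as separate samples, 104 probes met the thresholds (77 and 27), and 0 passed the adjustment. Of 274 values of named list genes that an alternative moved, 6 changed sign. With median centring these were EIF3F at -0.068, TNNI3 at -0.022 and FBXO25 at -0.0072, and with a gene's probes averaged TNNI3 at -0.016. With an array left out, and the dye orientations weighted alike, they were TNNI3 (-0.056 to 0.46) and CDKN1B (-0.44 to 0.00055). Signal over background limits what can be said of FBXO32, FOXO1, FOXO3 and FOXO4, and the causes of these moves were not tested.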
